A study of Arabidopsis thaliana with 12 samples.

Results

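Seedlings of the Arabidopsis thaliana line atbzip16 were set against the wild type Landsberg erecta (Ler), both grown in red light. The members are the 3 arrays of red-light atbzip16 and the 3 of red-light Ler, chosen by their titles, 6 of the 12 arrays of the series. All seedlings were 4 days old, and total RNA came from their aerial parts. The red-light groups grew in long days with light of 0.5 µmol m-2 s-1, and the other groups are etiolated atbzip16 and etiolated Ler, grown in the dark, with 3 arrays each. The labels give atbzip16 as a mutant in the Ler background and name no allele, so line and mutation cannot be told apart. The titles call the replicates biological. The p-values measure the spread left after a shift shared by arrays of the same replicate number is removed, pooled over all 12 arrays.

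bZIP16 is a transcription factor of the G group of plant bZIP proteins, which bind the G-box, a short DNA element found in many genes regulated by light and by abscisic acid. In young seedlings, light and hormones together set how fast the stem elongates, when the plastids turn green and when the stored seed programme ends. The bZIP16 transcript itself has no named probe set and is not analysed here.

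Values are array signals on a linear scale, as deposited, with a trimmed mean of about 500 on each array. Of 22746 probe sets, 15922 passed a filter on low signal (a geometric mean of at least 41.6 over the 12 arrays) and were tested, and 8717 of these matched 1 gene. A fold change is atbzip16 over Ler on the log2 scale, given with its standard error from limma. A call means an adjusted p under 0.05. The fit used all 12 arrays with replicate number as a block. Of 16 markers for the labelled tissue 4 had a named probe set. RCA, PSAN and LHCB4.2, which serve photosynthesis, had signals of 7740.7 to 18221.3 in atbzip16 and 7874.6 to 17525 in Ler, and SPCH, a factor of the stomatal lineage, had 96 to 221.5 in atbzip16 and 122 to 137.2 in Ler. Of root markers, 2 of 15 root markers had a named probe set, and their summed signal was 117.5 to 202.7 in atbzip16 and 87.4 to 246.2 in Ler. In such bulk samples fewer cells of a type and less RNA per cell cannot be told apart.

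In red light 34 probe sets were higher and 53 lower in atbzip16, 87 in all or 0.546% of those tested (0.214% higher and 0.333% lower). Of these, 17 were higher and 24 lower by at least 2-fold. For 6 of the 87, the red-light mean over both groups lay below the limit of the low-signal filter. Those 6 were tested because of their dark arrays. All 6 are among the 2-fold calls, and the size of their fold changes is uncertain. The log2 fold changes of all tested probe sets had a median of 0.01. The count rests on the replicate block and on replicate 2: limma called 6 probe sets without the block, 1 without replicate 2, 7 without replicate 3 and 522 without replicate 1. Of the 87, 68 had groups that did not overlap (25 higher and 43 lower), against 9.96% of all tested probe sets. The 87 were chosen by their p-values on these same arrays, so this share is not separate evidence. The named genes among the 87 number 45, with 18 higher and 27 lower.

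The largest difference was in AT1G06700, which was close to the low-signal limit in the mutant. Its signals were 53.5, 57 and 37 in atbzip16, against 4423.6, 4606 and 4400 in Ler. The groups lay far apart, at -6.53 ± 0.14 on the log2 scale (limma adjusted p = 1.7e-12), and the call held in 18 of 18 other settings. In the dark the fold change was -5.48, also called. Its neighbour AT1G06690 had 53.1, 13.6 and 3 in atbzip16, against 156.1, 234.4 and 223.1 in Ler. The groups did not overlap, but the gene did not pass in red light (-3.96 ± 0.89, limma adjusted p = 0.0689), while it was called lower in the dark. Most of its atbzip16 signals lay below the limit of 41.6, so the size of its fold change is uncertain, and a pseudocount of 16 brought it to -2.68, with a call. NIH, a DEIH-box helicase gene 3 genes from AT1G06700, had 216.6, 240.6 and 167.7 in atbzip16, against 408.7, 378.7 and 335.9 in Ler. Its fold change was -0.86 ± 0.16, a call (limma adjusted p = 0.0307) that held in 5 of 18 other settings. AT1G06690 and NIH were chosen after their values were seen.

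**Figure D1:**
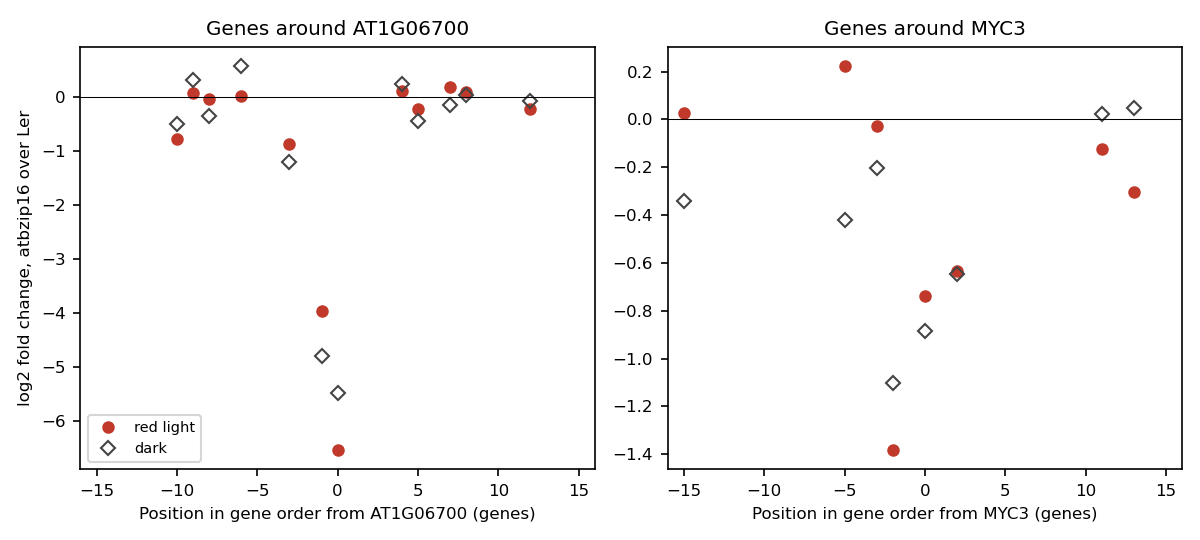
Log2 fold change of atbzip16 over Ler (y axis) for tested genes by their position in gene order (x axis, in genes) from AT1G06700 and from MYC3, with filled circles for red light and open diamonds for the dark. AT1G06700 reaches -6.53 in red light and AT1G06690 -3.96, while tested genes 4 or more positions away lie between -1 and 1.

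A smaller difference of the same kind in both light conditions was seen in MYC3, a transcription factor of jasmonate responses. MYC3 had 697.9, 784.5 and 737.4 in atbzip16, against 1304.3, 1216.9 and 1178.1 in Ler. The groups did not overlap, and the fold change was -0.74 ± 0.11 (limma adjusted p = 0.00846), with -0.88 in the dark. AT5G46780, which lies 2 genes away in the gene order of TAIR10.1, had a fold change of -0.63 ± 0.14 that did not pass (limma adjusted p = 0.0594), and was called lower in the dark (-0.65, limma adjusted p = 0.0245). MYC3 was the 1 called gene of 26 tested defence, jasmonate and wounding genes, where 0.546% of all tested probe sets were called. The median of that list was 0.14, with 0.07 without replicate 1 and 0.08 without red-light Ler replicate 3. It was 0.19 without replicate 2 and 0.21 without red-light Ler replicate 2.

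ChiC, a class V chitinase gene, which breaks down chitin, had 1026.7, 408.7 and 398.3 in atbzip16, against 2024.1, 844.8 and 845 in Ler. Replicate 1 was the high array in both groups, so the groups overlapped, and within each replicate atbzip16 was the lower. Its fold change was -1.04 ± 0.12 (limma adjusted p = 0.00148), with -0.98 in the dark. AT1G13930 had 1913.9, 1570.2 and 1493.1 in atbzip16, against 3391.6, 3414.8 and 3529.2 in Ler, a fold change of -1.06 ± 0.11 (limma adjusted p = 0.0014). The lipid-transfer-like genes AT2G37870 and AT3G53980 were lower too, by log2 fold changes of -1.69 and -1.50. AT2G37870 had 231.2, 223.9 and 194.7 in atbzip16, against 605.5, 666.2 and 845.9 in Ler, and its groups did not overlap. EULS3, a lectin gene, was lower at -0.89 ± 0.15 (limma adjusted p = 0.0156) and HIS1-3, a linker histone gene, at -0.85 ± 0.15 (limma adjusted p = 0.0223). The groups of HIS1-3 overlapped, and each of these 2 calls held in 9 of 18 other settings.

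Among genes that were higher, AT5G58660 had 405.8, 348.7 and 230.6 in atbzip16, against 174, 121.8 and 107.9 in Ler. The groups did not overlap, and the fold change was 1.28 ± 0.17 (limma adjusted p = 0.00318). AT1G55170 had 555.1, 440.7 and 474.4 in atbzip16, against 228.3, 201.6 and 268.9 in Ler, a fold change of 1.08 ± 0.14 (limma adjusted p = 0.00309). The pseudogene AT1G42705 had 373.6, 359.5 and 350.9 in atbzip16, against 5.2, 101 and 64.4 in Ler, and its fold change of 3.48 ± 0.68 rests on low Ler signals. The adjacent genes AT1G19540 (0.70) and AT1G19530 (0.59) were both higher, in red light and in the dark. For 2A6 the fold change was 1.07 in red light and 1.44 in the dark, both called.

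**Figure D2:**
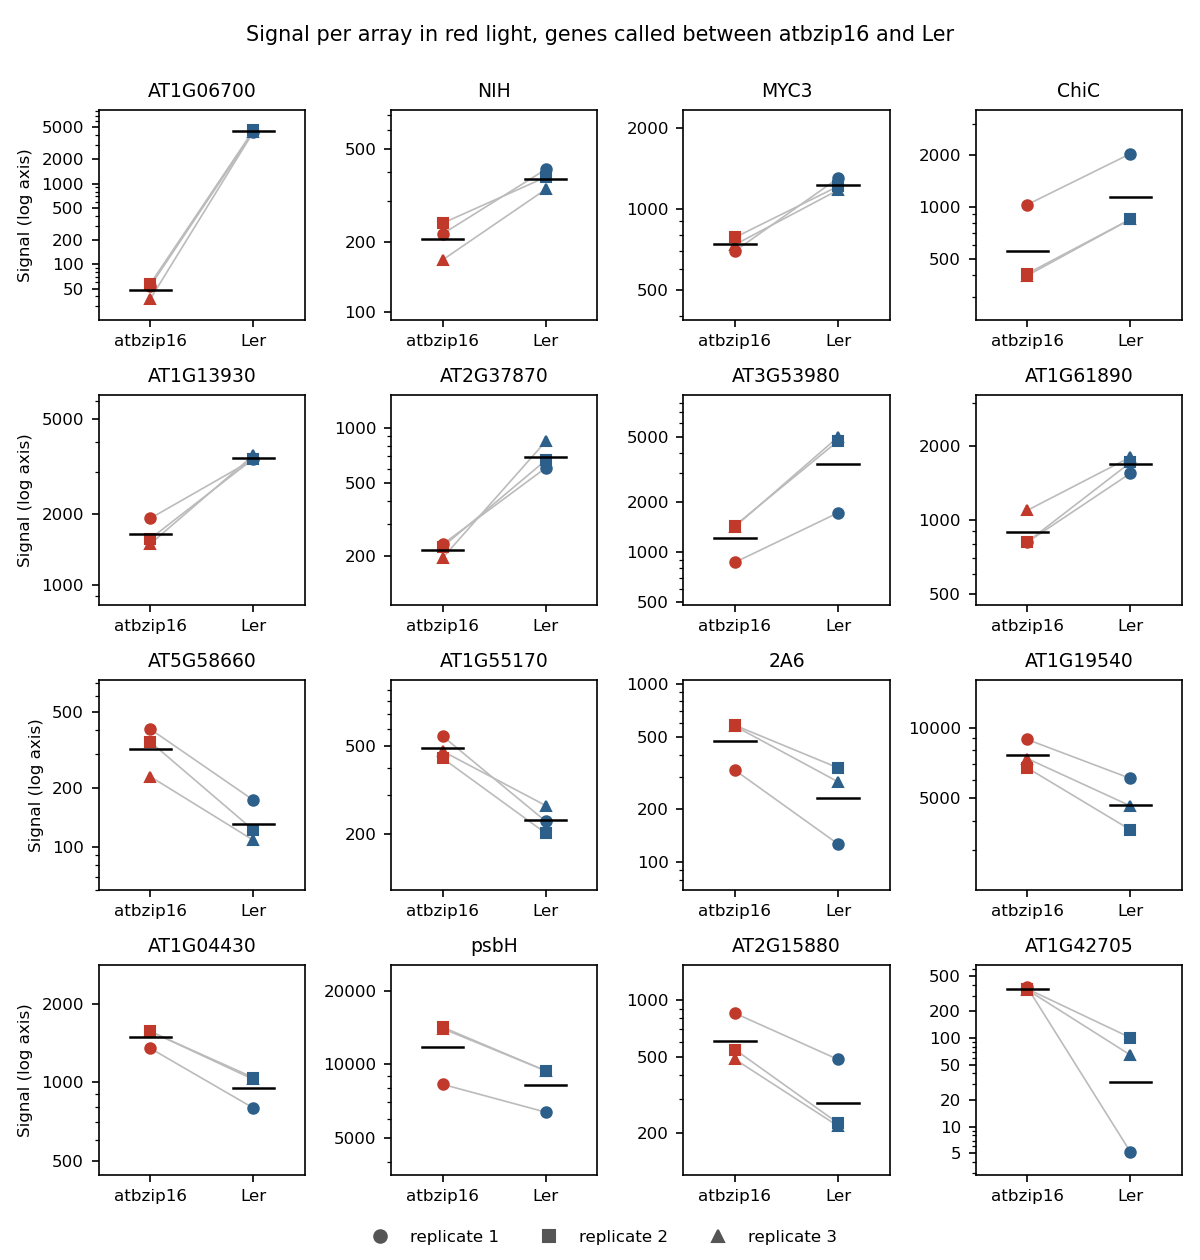
Signal per array (y axis, log scale) of 16 genes called in red light, with atbzip16 left of Ler, a marker shape for each replicate number, grey lines joining arrays of the same number and black bars for geometric means. In each panel the 3 lines run the same way, as they do for all 87 calls and for 32.3% of all tested probe sets. The genes were chosen by their calls, so this is not separate evidence. Replicate 1 stands apart within both groups for ChiC, 2A6, psbH and AT3G53980.

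Of 14 tested seed maturation genes, 3 were lower in atbzip16 in red light and 0 higher (0.333% and 0.214% of all tested probe sets), with a median of -0.33. In the dark 5 of them were higher (1.26% of all tested), with a median of 1.28. The test of the difference between the light conditions called 5 of the 14, with 0.314% of all tested called in that direction. Among the 5 is M10, which was tested because of its dark arrays. Its red-light means were 11.5 in atbzip16 and 44.6 in Ler. The red-light median rests on single arrays: leaving out atbzip16 replicate 3 gave -0.64, leaving out Ler replicate 1 gave -0.69 and leaving out Ler replicate 2 gave -0.06. In red light the mean signal over both groups lay below the limit of 41.6 for 3 of the 14, which were tested because of their dark arrays. The 3 genes called in red light are LEA18, AT3G17520 and AT5G44310. LEA18, a late embryogenesis abundant protein gene, had 1540.5, 601.6 and 579.8 in red-light atbzip16, against 2817.5, 1130.4 and 753.9 in red-light Ler. The groups overlapped because replicate 1 was high in both, and the fold change was -0.72 ± 0.13 (limma adjusted p = 0.0227). In the dark LEA18 had 14712.2, 6967.4 and 6911.1 in atbzip16, against 8811.1, 3402.8 and 3039.8 in Ler, a called fold change of 0.99. The test of the difference between the light conditions called it, at -1.71 (limma adjusted p = 0.000501).

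AT3G17520 showed the same order, with fold changes of -1.17 in red light and 1.04 in the dark and a difference of -2.21 (limma adjusted p = 0.00312). AT5G44310 had 52.6, 41.4 and 22.9 in red-light atbzip16, against 89, 83.2 and 53.8 in red-light Ler, low signals on all 6 arrays. Its fold changes were -0.999 in red light and 1.51 in the dark, both called. The list did not move as a whole: its red-light fold changes ran from -1.95 to 2.39, 9 below 0 and 5 above. PAP85, a vicilin-like storage protein gene, had 254.7, 197.1 and 312.3 in red-light atbzip16, against 177.4, 209.5 and 234.5 in red-light Ler, and was not called there (0.28, limma adjusted p = 0.685), while it was higher in the dark (1.09).

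**Figure D3:**
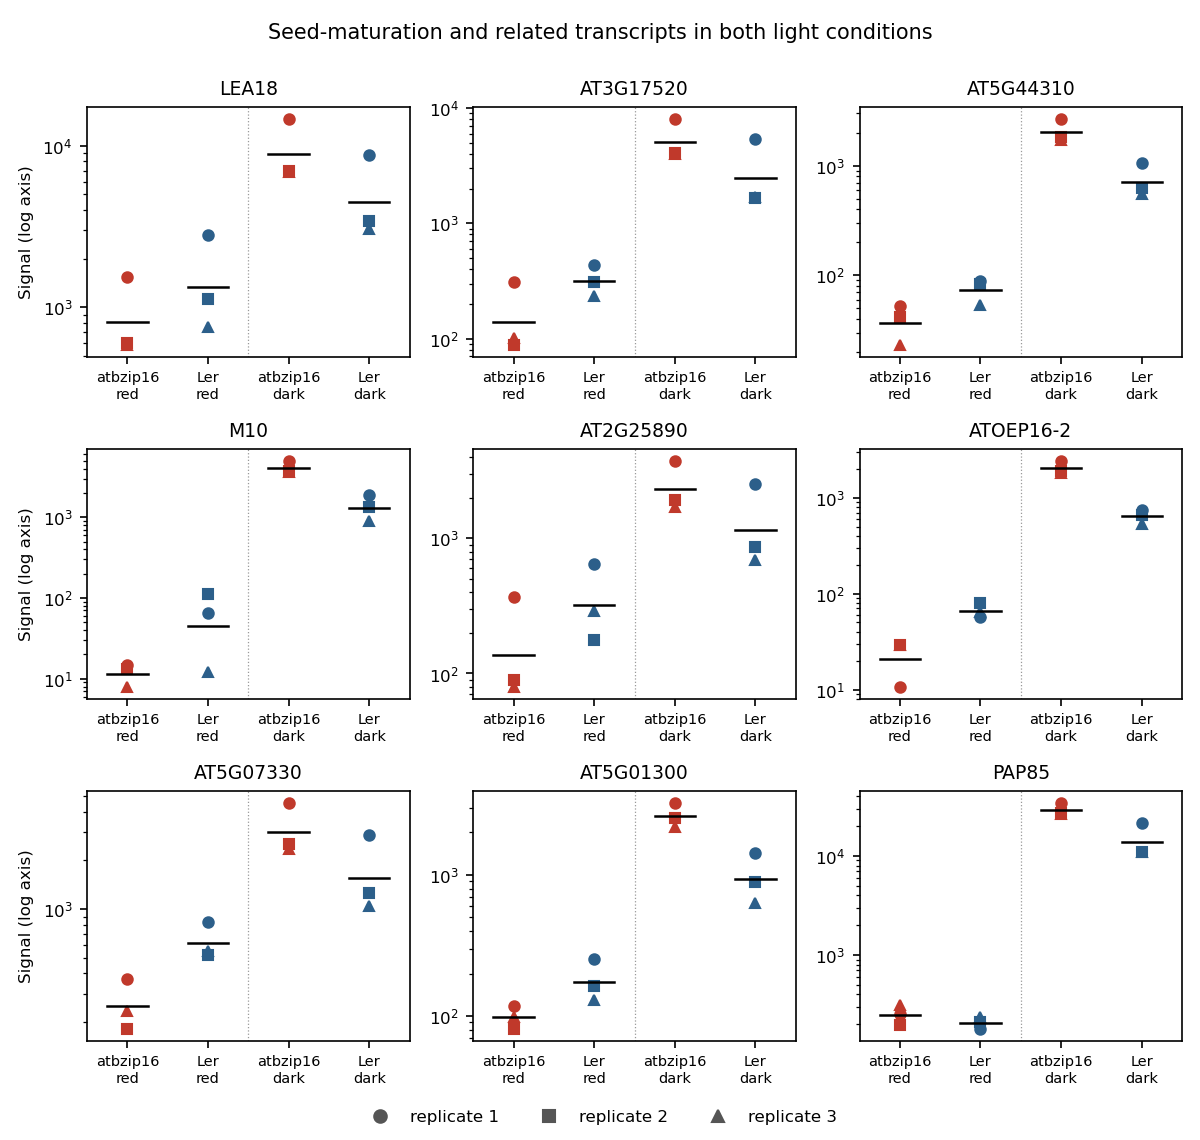
Signal per array (y axis, log scale) of 9 transcripts in red-light atbzip16, red-light Ler, dark atbzip16 and dark Ler, with a marker shape for each replicate number and black bars for geometric means. LEA18 has means of 813 and 1339 in red-light atbzip16 and Ler and of 8915 and 4500 in dark atbzip16 and Ler.

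Over all tested probe sets, the difference between the genotype effects was called for 54, of which 50 were lower in red light (0.314%) and 4 higher (0.0251%). No probe set was called without the block (567 at an unadjusted p under 0.05), without a variance trend (1292 at an unadjusted p under 0.05) or without replicate 2. Of the 53 probe sets lower in atbzip16 in red light, 17 were among the 50. The difference includes the red-light fold change that chose the 53, so this overlap is not separate evidence. Of the 53, 11 were called lower in the dark, where 0.565% of all tested probe sets were, and 10 were called higher, where 1.26% were. The red-light and dark tests share their estimate of the spread, so their calls are not independent. The 10 include, outside the seed list, ATOEP16-2, an outer plastid envelope protein gene, with 10.5, 28.8 and 29.1 in red-light atbzip16, against 57.2, 80.2 and 63.7 in red-light Ler. Its fold changes were -1.68 in red light and 1.66 in the dark, but it was tested because of its dark arrays, and its atbzip16 signals in red light lay below the limit, where a pseudocount of 16 gave -1.13. AT2G25890, an oleosin-family gene, had -1.24 and 1.01, and AT5G07330 had -1.31 and 0.95. AT1G06700 was also among the 50, lower in both conditions, with atbzip16 signals near the limit in each (37 to 57 in red light and 70.3 to 76.1 in the dark). Its difference was -1.06, and -0.92 with a pseudocount of 16, and its Ler means were 4476 in red light and 3287 in the dark. With such low atbzip16 signals, its folds alone cannot settle whether the effect changed. Of the 34 probe sets higher in red light, none was called for the difference between conditions (0 of 34, limma). In the dark 33 of the 34 had a fold change above 0, as did 7424 of all 15922 tested, and 15 were called higher (1.26% of all tested were). The median of the 34 was 0.97 in red light, where they were chosen, and 0.67 in the dark. AT5G02540 had 0.80 in red light and -0.11 in the dark. MYC3, ChiC, NIH and psbH were not called for the difference. A missing call does not show that the effects were equal.

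**Figure D4:**
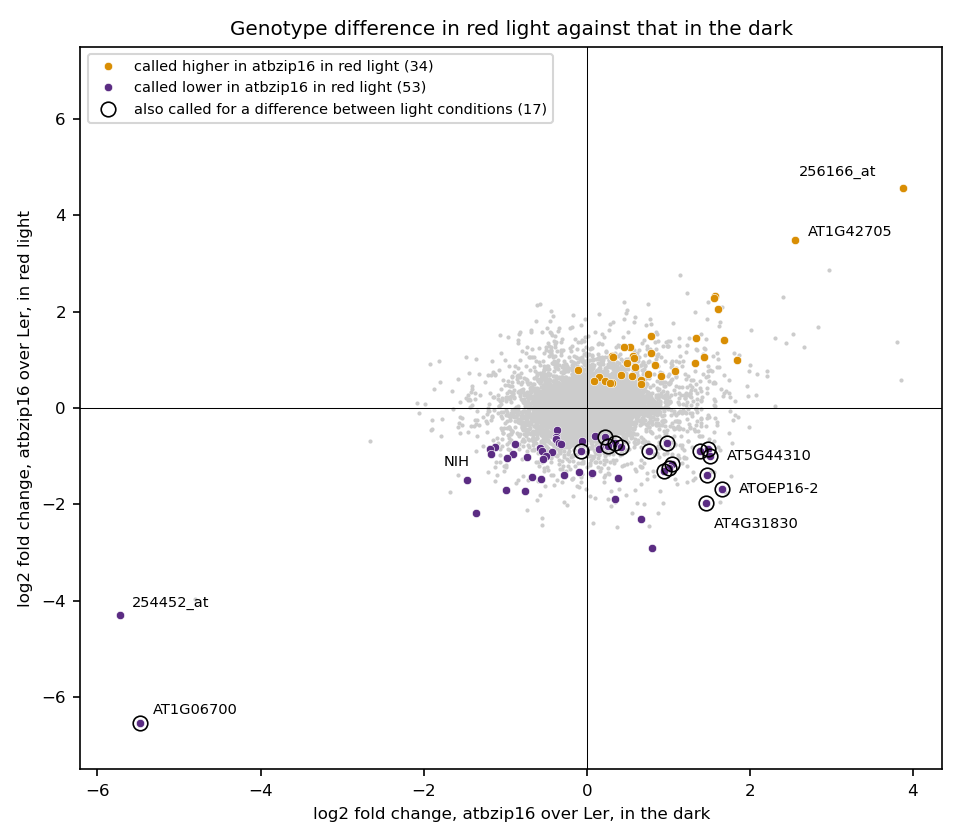
Log2 fold change of atbzip16 over Ler in the dark (x axis) and in red light (y axis) for each tested probe set (grey), with calls in red light coloured and black rings on those also called for the difference between light conditions. Of 53 calls lower in red light, 23 lie right of 0 and 30 left of it, and of 34 calls higher, 33 lie right of 0. Of all 15922 tested, 7424 lie right of 0.

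Of 67 plastid-encoded genes, 1 was called higher (0.214% of all tested probe sets were). Their median was 0.19, and 60 of 67 members lay above 0, as did 8386 of all 15922 tested. The median was 0.13 without red-light atbzip16 replicate 3 and 0.14 without red-light Ler replicate 2. In the dark it was 0.10, with 47 of 67 above 0. The members come from the same arrays and are not replicates. The called gene, psbH, a small subunit of photosystem II, had 8291, 14201.6 and 14008.2 in atbzip16, against 6378.8, 9413.6 and 9417.6 in Ler. Replicate 1 was the low array in both groups, which overlapped, and the fold change was 0.51 ± 0.09 (limma adjusted p = 0.0223). With lists this short and 0.546% of all tested probe sets called, a count of 0 carries little. No member was called among 7 light-harvesting and photosystem genes (median 0.06), 9 chlorophyll synthesis genes (0.10), 4 genes of the Calvin cycle and photorespiration (0.08), 10 auxin genes (0.04), 6 gibberellin genes (0.02) or 18 cell wall growth genes (-0.08). The same held for 50 detoxification enzymes (-0.04), 8 cell cycle and cytoskeleton genes (0.10) and 7 genes of sugar and starch response (0.21). LTI30, a dehydrin gene, had 968.9, 1637.5 and 1318.5 in atbzip16, against 2113.9, 4093.9 and 4430.1 in Ler. Its groups did not overlap, yet the fold change of -1.40 ± 0.31 did not pass (limma adjusted p = 0.0689), and 0 of 7 abscisic acid and dehydration genes were called.

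**Figure D5:**
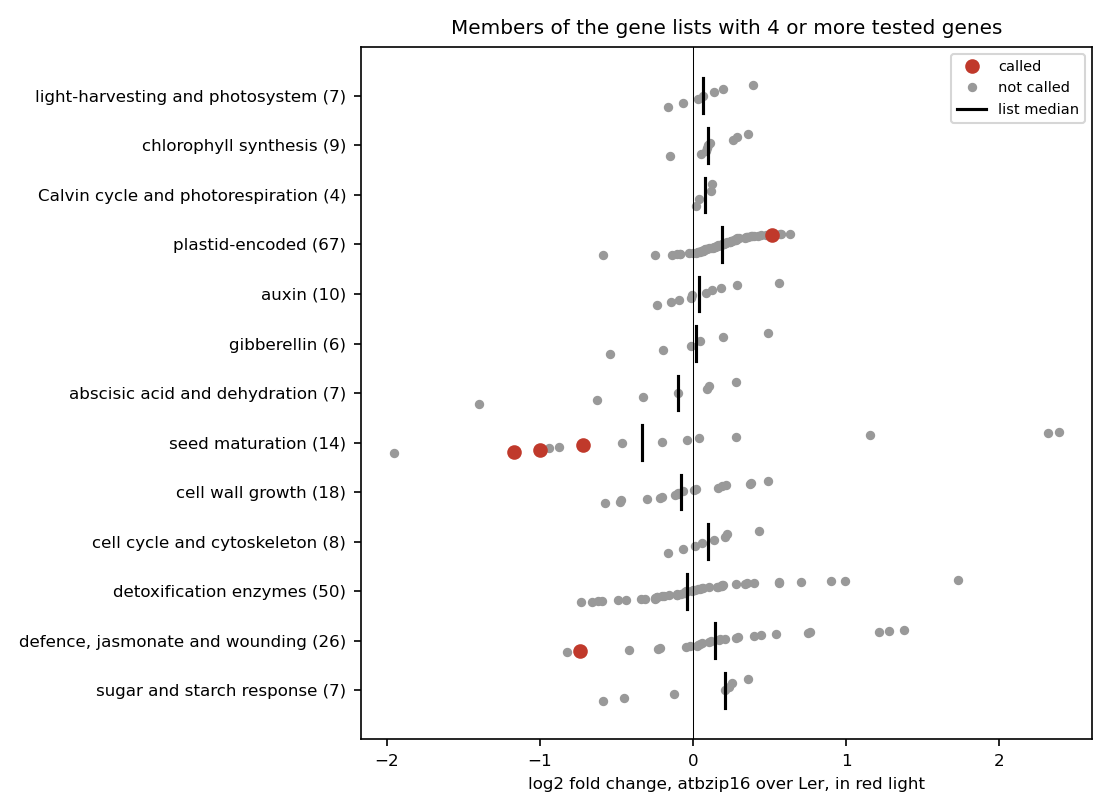
Log2 fold change of atbzip16 over Ler in red light (x axis) for members of the gene lists with 4 or more tested genes, with the number tested in brackets, red points for called members and a black bar at the list median. Called members are 3 in the seed maturation list, 1 in the plastid-encoded list and 1 in the defence list.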

How the data were processed

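The values are linear probe set intensities from the deposited series table, made with MAS5 per the submitters' processing notes, where no version is given. The labels' protocols also describe polysome RNA, but each sample is labelled total RNA. Groups follow the titles, which 6 of the descriptions contradict on the light condition. Log2 intensities of 12 arrays were fitted with limma 3.58.1 in R 4.3.3 (group means, replicate number as a fixed block, eBayes with a variance trend), with Benjamini-Hochberg adjustment over 15922 probe sets. The 64 control probe sets and the 30% with the lowest geometric mean were left out. Means of a group are geometric. Arrays hold no counts, so their number limits the precision.

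Same-numbered arrays of different groups had residual correlations of 0.164 to 0.505 (18 pairs), and differently numbered ones -0.386 to 0.248. The rule of a correlation over 0.1 for each same-numbered pair was met, but mainly replicate 1 is set apart, and the pairing of replicates 2 and 3 is weak. Replicate 2 of one group with replicate 3 of another also passed 0.1 (0.105 to 0.248). Meeting the rule therefore does not show that replicates 2 and 3 are paired. Genes were named through the platform annotation and a TAIR10.1 gene table, and 8730 probe sets had no entry. Named genes were the 15 largest rises and 15 largest falls among calls, the 6 smallest adjusted p, up to 4 called members of a list (or the 2 smallest p), up to 10 genes called in both red light and the difference between conditions, and called neighbours. Other names were chosen after their values were seen. The members and the 23 lists were chosen with earlier results of these data known, and wrong symbol matches were removed from the lists after the values had been seen. Lists without a tested member were the G-group bZIP, mitochondrion-encoded and flavonoid genes. The code was tested on simulated data. A planned description of G-box motifs in promoters was not made.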

Additional observations from a re-analysis of the deposited data

Results flagged for a closer look

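The test of the difference between the genotype effects, red light minus dark, singled out 15 of the named genes. For 8 of them atbzip16 was called lower than Ler in red light and higher in the dark. They are AT5G07330 (difference of -2.26), AT5G01300 (-2.33), AT5G44310 (-2.51), LEA18 (-1.71), AT3G17520 (-2.21), ATOEP16-2 (-3.34), AT2G25890 (-2.25) and AT5G42290 (-2.87). AT4G31830 (-3.43) had a call in red light and not in the dark, and M10 (-3.59) and LEA4-5 (-1.92) had none in either, with fold changes of the same signs. In red light M10, AT4G31830 and ATOEP16-2 had atbzip16 signals of at most 14.9, 13.5 and 29.1, below the limit of 41.6, and were tested because of their dark arrays, so the size of their differences is uncertain. With a pseudocount of 16 the differences were -2.88, -2.57 and -2.76, and AT4G31830 lost its call in red light (-1.14). AT5G55050 (-1.24) and AT3G43520 (-0.83) were called lower in red light and not called in the dark. TUB1, a tubulin gene, differed the other way (0.90), and AT1G06700 was lower in both conditions (-1.06), with atbzip16 signals near the limit in each.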

How the results depend on the processing

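None of the 50 named called genes or probe sets reversed in the settings run, but many lost their call. Of the 50, 5 kept it without the replicate block, 1 without replicate 2 and 5 without replicate 3. The call held in 16 of 18 other settings for AT1G13930 and AT1G55170, 14 for ChiC and 12 for MYC3. It held in 9 for LEA18, 8 for AT3G17520 and AT5G44310, 7 for psbH and AT3G53980 and 5 for NIH. Leaving out arrays gave 1 to 522 calls in red light, 28 to 706 in the dark and 0 to 285 for the difference between conditions, the lowest without replicate 2 and the highest without replicate 1. Without the replicate block the counts were 6, 10 and 0, against 87, 290 and 54 with it. With replicate as a random block they were 23, 125 and 8, and without a variance trend 14, 62 and 0. A pseudocount of 16 gave 92 calls for the difference. The causes were not tested. Median centring gave 86 calls in red light, 26 higher and 60 lower, against 34 and 53. Low signals limit the folds of several genes, and a pseudocount of 16 brought AT1G42705 to 2.69, AT1G29680 to 1.42, AT1G14930 to -1.52, TAAC to -1.58, ATOEP16-2 to -1.13 and AT4G31830 to -1.14.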
